A study of Mus musculus with 2 samples.

Results

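Mir126a, Mir143 and Mir145a are the miRNA genes best known from blood vessels, the first from endothelium and the other two from the smooth muscle of the vessel wall. They were found in the count tables by their Ensembl identifiers, which GENCODE pairs with these symbols, a rule that uses no measured value: 3 genes of 1973 counted. The tables come from microRNA sequencing of total RNA of short size range from mouse limbs, taken from embryos of strain B6NCrl at embryonic day 13.5, with male and female tissue pooled and the embryos described as healthy. There is 1 group with 2 biological replicates, from separate tissue samples under 1 donor label, and no treated, mutant or second-tissue group, so the values describe 1 tissue and its spread over 2 libraries. Nothing in the labels says how many embryos were pooled, and the spread between the libraries may in part be technical.

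Each miRNA gene encodes a hairpin that Drosha and Dicer cut to a short mature strand, which guides Argonaute to mRNAs that match its seed. In endothelium, miR-126 is processed from the transcript of Egfl7, a gene for a secreted factor of vessel development, and is known in mouse and zebrafish for keeping vessels intact by holding down Spred1 and Pik3r2, brakes on VEGF signalling. miR-143 and miR-145 are made together downstream of serum response factor and myocardin, and are known in mouse for keeping vascular smooth muscle contractile. The embryonic limb at this stage is threaded by a growing vessel network around its cartilage and muscle.

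The Mir126a sequences are shown because reads of this gene turn out to make up most of the reads of the 3 genes, and because its locus also carries a gene on the other strand. They are the RefSeq entries on GRCm38.p6, the build of mm10. In the hairpin, at chr2:26591357-26591429 on the plus strand, capitals mark the 3p mature arm. In the mature sequences capitals mark the seed, bases 2 to 8.

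Mir126a hairpin: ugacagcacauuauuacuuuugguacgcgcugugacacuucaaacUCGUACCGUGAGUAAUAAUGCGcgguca
mmu-miR-126a-3p: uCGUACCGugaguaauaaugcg
mmu-miR-126b-5p: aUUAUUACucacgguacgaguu
mmu-miR-126b-3p: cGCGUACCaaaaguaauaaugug

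The hairpin is 73 bases long and its 3p arm 22. Among 1738 mature sequences in the RefSeq table, none other than mmu-miR-126a-3p itself carried its seed. The arm mmu-miR-126a-5p and the arms of Mir143 and Mir145a are not listed there, so their seeds were not compared. Counts are per gene and do not separate the arms. Mir126b lies on the minus strand of the same place, at chr2:26591363-26591420, and its 5p arm faces the 3p arm of Mir126a over 19 bases, from 26591402 to 26591420, as a complement. The seeds of the Mir126b arms each occurred once in the table as well.

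Mir126a (ENSMUSG00000065540) lies inside Egfl7, which GENCODE M21 places on the plus strand of chromosome 2 from 26580014 to 26593120. Of 9 annotated Egfl7 transcripts that span the hairpin, 8 hold it in an intron. The remaining one, a transcript annotated as a retained intron, holds the whole hairpin in an exon. A transcript of the overlapping gene Gm20532 also holds it in an intron.

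Mir143 (ENSMUSG00000065445) and Mir145a (ENSMUSG00000065592) lie on the minus strand of chromosome 18, at 61649196 to 61649258 and at 61647825 to 61647894. The hairpins are 63 and 70 bases long, with 1301 bases between them, and Mir143 comes first in the direction of transcription. The annotations differ on their host. RefSeq runs the long noncoding RNA gene Carmn, also called Mir143hg, from 61645878 to 61665538 across both hairpins, whereas GENCODE M21 ends it at 61649625, before Mir143. Bvht, a long noncoding RNA gene on the opposite strand, ends 353 bases from Mir145a.

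The libraries held 12407140 reads in replicate 1 and 12657170 in replicate 2, and 5927321 and 6003632 of them fell on the sense strand of counted genes. Levels are given as CPM (counts per 1000000), with those sense sums as the totals. Detection meant at least 10 sense counts in both libraries, which 372 of 1973 genes (18.9%) reached, all 3 vessel genes among them. Where a gene had 0 counts, its level may be as high as 0.506 CPM (replicate 1) or 0.4997 CPM (replicate 2), and these limits, like the intervals below, cover counting error only. All 5 Hox cluster and both cartilage markers were detected. Mir196b had a mean of 75238 CPM, Mir10b of 14101, Mir10a of 5824, Mir196a-2 of 964 and Mir196a-1 of 21.7 CPM, the last 2 sharing 22 bases with each other, and the cartilage genes Mir140 and Mir455 had means of 46627 and 2020 CPM. The liver marker Mir122 had a mean of 73.7 CPM, and 4 of 5 counted neuronal markers had no sense count in either library, all of them genes with long stretches shared with a copy.

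The endothelial gene was the most abundant of the 3. Mir126a had 123465 sense counts in replicate 1 and 117892 in replicate 2. That is 20830 CPM (95% Poisson interval 20714 to 20946) and 19637 CPM (19525 to 19749), with a mean of 20233 ± 844 CPM (SD, n = 2). It ranked 14th of all counted genes in both libraries, above 96.2% of the detected genes. Mir143, the leading smooth muscle gene, had 37448 and 42743 counts. Its levels were 6318 CPM (6254 to 6382) in replicate 1 and 7120 CPM (7052 to 7187) in replicate 2, with a mean of 6719 ± 567 CPM (SD, n = 2). It ranked 31st by mean, 31st in replicate 1 and 29th in replicate 2, above 91.7% of the detected genes. Mir145a had few reads beside its neighbour. It had 635 and 655 counts, or 107 CPM (99.0 to 116) and 109 CPM (101 to 118), and a mean of 108 ± 1.4 CPM (SD, n = 2). It ranked 185th by mean, close to the middle of the detected genes, of which 50.3% lay below it. The order Mir126a, Mir143, Mir145a was the same in both libraries and the values of the 3 genes did not overlap.

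**Figure D1:**
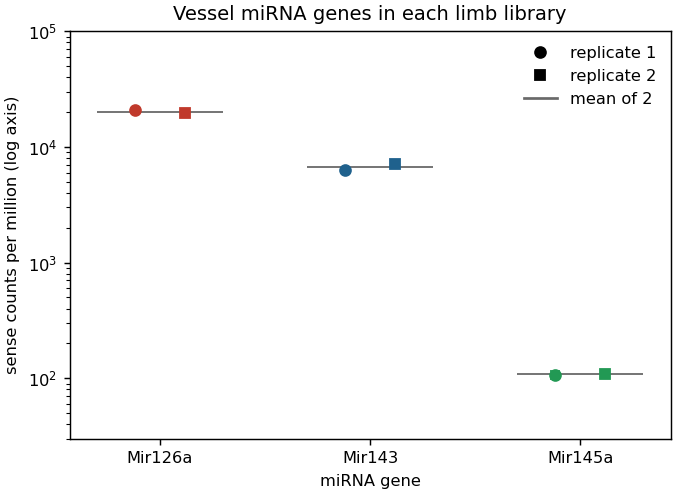
CPM of sense counts (log axis) of Mir126a, Mir143 and Mir145a, with circles for replicate 1, squares for replicate 2, 95% Poisson intervals (mostly smaller than the symbols) and a line at the mean of both. The libraries lie close together within each gene, and the genes are far apart, at means of 20233, 6719 and 108 CPM.

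Together the 3 genes held 2.73% (exact binomial interval 2.71 to 2.74) of sense counts in replicate 1 and 2.69% (2.67 to 2.70) in replicate 2, a mean of 2.71% ± 0.03 (SD, n = 2). Mir126a made up 74.8% ± 2.4 of this sum, Mir143 24.8% ± 2.3 and Mir145a 0.400% ± 0.009 (SD, n = 2 each). RNA of the whole limb was measured, so fewer cells of a type and less RNA per cell cannot be told apart. For the same reason these shares are shares of reads, not of cells. Whether different miRNAs give reads in equal proportion to their RNA was not tested, so differences between genes are differences in reads.

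How firmly each place among the counted genes is known from these 2 libraries follows from the neighbours in the order. Reads with more than 1 mapping place, 30.8% and 29.5% in replicates 1 and 2, are in no gene. Genes with close copies may thus stand too low, and the 32 uncounted miRNA genes opposite counted ones have no rank. No other counted gene had a value within the range of Mir126a: 13 genes lay above it and 1959 below it in both libraries. Nearest above was Mir26b at 24861 ± 998 CPM, and nearest below was Mir100 at 17236 ± 833 CPM (SD, n = 2 each). Mir99b, second above at 25670 CPM, and Mir23a, second below at 15886 CPM, were clear of it too. Around Mir143 the order was mostly not resolved. Its range overlapped those of 5 genes, Mir130b, Mir181c, Mir205, Mir149 and Mirlet7d, which spanned ranks 28 to 33. Of these only Mirlet7d kept its side, below Mir143 at 5427 CPM in replicate 1 and 6656 CPM in replicate 2. Mir205, an epithelial gene just above it by mean at 6918 ± 918 CPM, lay below Mir143 in replicate 1 (6269 CPM) and above it in replicate 2 (7567 CPM). The range of Mir145a overlapped those of 9 genes between ranks 178 and 191. Its nearest were Mir338 at 110 ± 6.9 CPM above and Mir412 at 108 ± 8.7 CPM below, both inside the spread, and next to these came Mir5099 at 112 CPM and Mir669c at 105 CPM. Likeness here means closeness in mean level over 2 libraries of 1 tissue, and carries no pattern across conditions.

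**Figure D2:**
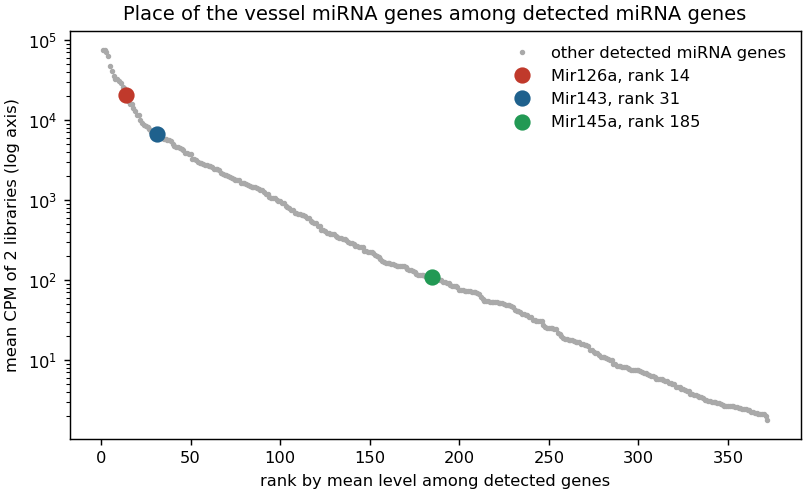
Mean CPM of 2 libraries (log axis) against rank for the 372 detected miRNA genes, with Mir126a, Mir143 and Mir145a in color. Mir126a sits at rank 14 and Mir143 at rank 31 on the steep left part of the curve, and Mir145a at rank 185 near its middle.

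Counts of Mir126a exceeded those of Mir143 and Mir145a together. Mir126a was 3.24-fold the sum of Mir143 and Mir145a in replicate 1 and 2.72-fold in replicate 2, a log2 ratio of 1.70 and 1.44 and a mean of 1.57 ± 0.18 (SD, n = 2). Per base of hairpin the mean log2 ratio of these levels was 1.36 ± 0.18. Both libraries gave the same direction. No test was made, since the smallest two-sided exact p that 2 libraries allow is 0.5. Its size varied between the libraries beyond counting error. Mir143 made up 23.3% (exact binomial interval 23.1 to 23.5) of the counts of Mir126a plus Mir143 in replicate 1 and 26.6% (26.4 to 26.8) in replicate 2.

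Within the smooth muscle pair, Mir143 was far above Mir145a although both hairpins lie in 1 cluster. The difference was 59.0-fold in replicate 1 and 65.3-fold in replicate 2, a mean log2 ratio of 5.96 ± 0.10 (SD, n = 2). Per base of hairpin the mean log2 ratio of the levels was 6.11 ± 0.10. Mir145a supplied 1.67% (exact binomial interval 1.54 to 1.80) of the pair's counts in replicate 1 and 1.51% (1.40 to 1.63) in replicate 2. The intervals overlap, which is no test of a difference, and a change of this share between the libraries was not tested.

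Unequal levels within a cluster were common, and the pair stood towards the wide end. Among 110 pairs of detected genes that are next neighbours on 1 strand within 10000 bases, the median absolute log2 difference of levels, averaged over the libraries, was 3.07 (quartiles 1.36 and 5.55). The value of Mir143 and Mir145a was 5.96, and 24 pairs were wider. Among the 64 pairs in which neither gene shares 18 or more bases with another miRNA gene the median was 2.71 (quartiles 1.22 and 4.31), and 7 pairs were wider. Some pairs have a gene in common, so these counts are a description.

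**Figure D3:**
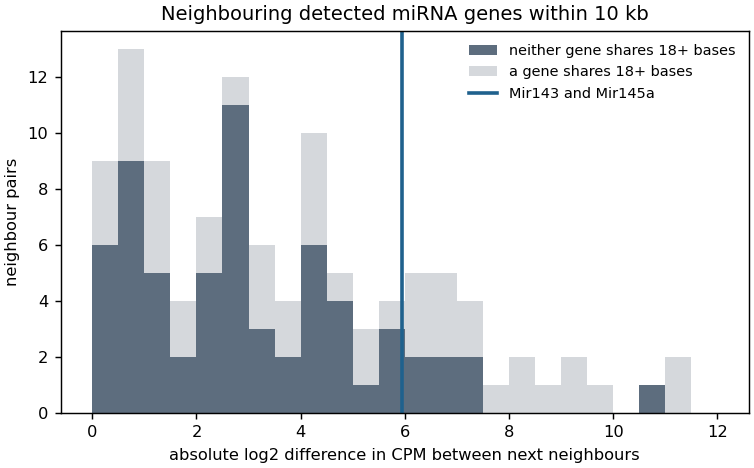
Number of neighbouring pairs of detected miRNA genes (within 10000 bases on 1 strand) by the absolute log2 difference of their CPM, averaged over 2 libraries. Dark bars are the 64 pairs without long shared sequence and light bars, stacked on them, the other pairs; the line marks Mir143 and Mir145a at 5.96, right of the median of 3.07.

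Reads with more than 1 mapping place were left out of every gene, and these were 30.8% and 29.5% of all reads in replicates 1 and 2. Of the 3 hairpins, Mir126a and Mir143 shared no stretch of 14 or more bases with another annotated miRNA hairpin away from its own locus. Mir145a shared 17 bases with Mir145b, a gene on the same chromosome at 69022199 to 69022273 that had 0 counts in both libraries. By comparison 880 of the 1973 genes shared 22 or more bases. Copies outside annotated miRNA genes were not searched.

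The hairpins had little else in common. GC content was 45.2% for Mir126a, 55.6% for Mir143 and 48.6% for Mir145a, with 262, 108 and 208 of the 372 detected hairpins above each. The predicted folding energy was -31.2, -36.9 and -30.3 kcal/mol. Per base, Mir143 was among the more stable hairpins, with 25 of the 372 more stable than it, whereas 208 were more stable than Mir126a and 194 more stable than Mir145a.

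Nearly all reads lay on the sense strand at all 3 genes. Mir143 and Mir145a had 0 antisense counts in both libraries. Mir126a had 35 antisense counts in replicate 1 and 11 in replicate 2, 0.0283% and 0.00933% of the reads over it. Mir126b, the gene printed above that lies opposite, was not counted under its own identifier, and reads from it would fall into that antisense count. For 32 counted genes GENCODE M21 has a miRNA gene on the opposite strand, and in all 32 the opposite gene was not counted. Across all genes, 14 had at least 10 antisense counts in each library, 12 of them with such a partner. Their antisense sums over both libraries ran from 46 to 105784 with a median of 13371.5, and Mir126a, at 46, was the lowest.

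Between the libraries the members moved little. A two-sided exact binomial test was run on each of 444 genes with at least 10 counts over both libraries, and a gene was called with a Benjamini-Hochberg adjusted p of at most 0.05 and an absolute log2 ratio of at least 1. Of all genes 3.38% were called, and 0 of the 3 vessel genes. No gene with a mean of at least 100 CPM reached the minimum ratio, and all 3 vessel genes lie above that level. The 3.38% thus comes from genes of lower level. Without the minimum ratio 40.3% of all genes passed, as did Mir126a and Mir143. The log2 ratio of levels, replicate 2 over replicate 1, was -0.085 for Mir126a (adjusted p = 1.83e-46, exact binomial test). It was 0.17 for Mir143 (adjusted p = 8.78e-63, exact binomial test). For Mir145a it was 0.026 (adjusted p = 0.858, exact binomial test), within counting error at its depth. These tests compare 2 libraries of the same tissue and say nothing of a condition.

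Among 190 genes with a mean of at least 100 CPM the median absolute log2 ratio was 0.13, the upper quartile 0.21 and the highest value 0.73. These genes reach up to 75238 CPM and are not matched in depth to any member. Smaller shifts than that of Mir126a were seen in 69 of them, than that of Mir143 in 125 and than that of Mir145a in 23. The biological coefficient of variation over the detected genes, from edgeR's common dispersion, was 0.111. The coefficients of variation of the members, from their CPM, were 4.17% for Mir126a, 8.44% for Mir143 and 1.29% for Mir145a.

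**Figure D4:**
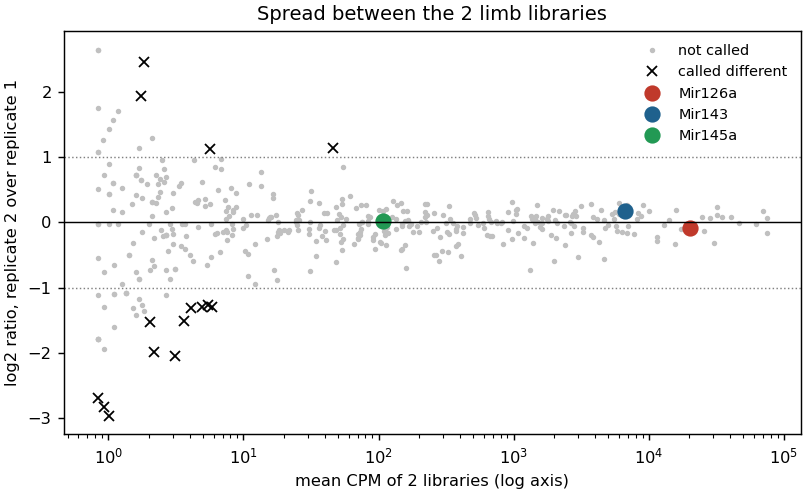
Log2 ratio of replicate 2 over replicate 1 against mean CPM (log axis) for the 444 genes tested, with crosses for the 15 genes called different, dotted lines at the minimum ratio of 1, and the vessel genes in color. Mir126a lies at -0.085, Mir143 at 0.17 and Mir145a at 0.026, all between the dotted lines.

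Other miRNA genes with a described part in endothelium or angiogenesis were set beside the members as a list of 32, of which 29 were counted under their own genes and all 29 were detected. Mir18a, Mir92a-1 and Mir146a are among them under the older symbols Mir18, Mir92-1 and Mir146, at 5542, 2784 and 52.3 CPM. Those 29 held 26.7% ± 0.2 (SD, n = 2) of sense counts, though most of them are used by many cell types. Of the 29, 7 have 22 or more bases in common with another hairpin, so that their values may be too low. The 3 not counted under their own genes, Mir378a, Mirlet7e and Mir24-1, lie opposite counted genes, and antisense reads there summed to 105784, 64609 and 999 over both libraries. Above Mir126a stood 5 of them: Mir322 at 69568 ± 6003 CPM, Mir23b at 34952 ± 1513, Mir130a at 32213 ± 1679, Mir17 at 30533 ± 4775 and Mir99b at 25670 ± 1658 CPM (SD, n = 2 each). Mir130a is known from endothelial culture for lowering antiangiogenic homeobox factors, and Mir17 leads the Mir17 to Mir92a cluster, whose members act on vessel growth. Between Mir126a and Mir143 stood 3 more, and 8 lay below Mir145a. In the exact binomial test between libraries 9 of the 29 (31.0%) passed the adjusted p higher in replicate 2 and 9 (31.0%) lower, against 18.2% and 22.1% of all genes, and none reached the minimum ratio, which 3.38% of all genes passed. Passing depends on depth, and all 29 were detected. Their median log2 ratio was -0.011, beside -0.018 over all genes tested.

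A second list named 22 genes described in smooth muscle or pericytes. Of these 19 were counted and 12 detected, and 11 have 22 or more bases in common with another hairpin, so that their values may be too low. The 19 held 5.29% ± 0.01 (SD, n = 2) of sense counts. The 3 not counted, Mir1a-2, Mir497a and Mir663, are in neither this sum nor the order below. Over Mir497b, opposite Mir497, lay 3412 and 3612 antisense reads in replicates 1 and 2. Over Mir1b, opposite Mir1a-2, there were 2 and 5. Mir214 at 28501 ± 837 CPM lay above Mir126a, and Mir100 at 17236 ± 833 CPM between Mir126a and Mir143. Mir21a, known for growth responses of the vessel wall, followed at 4713 ± 199 CPM, then Mir28a at 1065 ± 108 and Mir195a at 548 ± 10.9 CPM. Below Mir145a lay 12 of the 19, among them Mir133a-2 and Mir145b, with no sense count in either library. Of 13 tested, 3 (23.1%) passed the adjusted p higher in replicate 2 and 4 (30.8%) lower, beside the 18.2% and 22.1% of all genes, and none was called, beside 3.38%. Their median log2 ratio was -0.041, beside the same -0.018.

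Mir126a is also known from some blood cells, and Mir143 and Mir145a from embryonic heart muscle, so markers of those tissues are given here. Of 7 blood markers 5 were counted, all below Mir143, with Mir223, a myeloid gene, at 318 ± 1.6 CPM, the erythroid genes Mir451a and Mir144 at 74.8 ± 0.03 and 50.9 ± 3.1 CPM, the erythroid gene Mir486a, listed as Mir486, at 15.2 ± 0.2 CPM and the lymphoid gene Mir150 at 6.71 ± 1.48 CPM (SD, n = 2 each). Their sum was 0.0465% of counts in replicate 1 and 0.0466% in replicate 2, beside a mean of 2.02% for Mir126a. Mir142, a further blood gene, was not counted itself and is not in this sum. Over Mir142b opposite it lay 2337 and 2543 antisense reads in replicates 1 and 2, beside 1891 and 1902 sense counts of Mir223. Of the 6 skeletal muscle markers 5 were counted, led by Mir206 at 3841 ± 141 CPM, with Mir133b at 75.3 ± 0.03 CPM and the other 3, all with close copies, at 0 or 1 count in each library. The genes listed as heart markers, Mir208b, Mir499 and Mir208a, lay at 101 ± 0.15, 81.1 ± 10.6 and 6.78 ± 2.66 CPM. Whether their reads come from heart or from other muscle was not tested. The part of blood, heart, other muscle or any further cells outside vessels in the levels of the vessel genes was not tested.

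**Figure D5:**
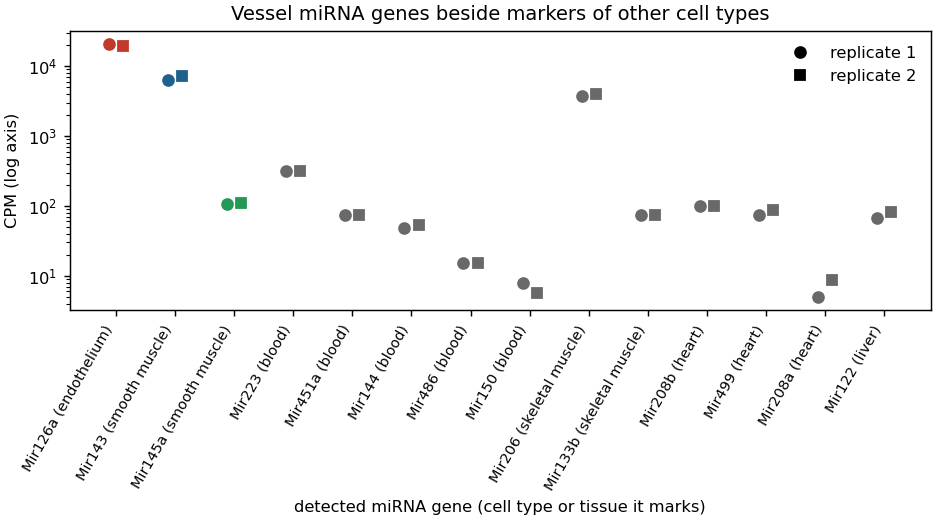
CPM (log axis) of the vessel genes, in color, beside detected genes listed as markers of blood, skeletal muscle, heart and liver, in gray. Circles are replicate 1 and squares replicate 2. Mir126a and Mir143 lie above every other marker drawn, while Mir145a, at a mean of 108 CPM, lies below Mir206 and Mir223 and near Mir208b at 101 CPM. Neuronal, cartilage and Hox cluster markers are not drawn. Of these, 1 of 2 cartilage and 1 of 5 Hox cluster markers lie above Mir126a.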

How the data were processed

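MicroRNA sequencing of 2 limb libraries gave 1 deposited table of raw read counts for each, for 1973 miRNA genes, with columns for either strand, sense and antisense after 4 lines of reads in no gene. The authors' text names mm10 and GENCODE M4; no aligner or counter is given in the sources used here. No header names the columns; their meaning was taken from the layout, and sense plus antisense gave the first column in all 1973 genes. Unmapped reads were 17.2% and 18.6% of all reads in replicates 1 and 2, and uniquely mapped reads in no gene on the sense strand 4.24% and 4.48%; these lines stayed out of library sizes.

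Symbols and coordinates came from GENCODE M21 on the same build, matched without identifier version for 1894 of 1973 genes (GRCm38), list symbols missing there were matched through RefSeq synonyms where these name 1 gene, and printed sequences from RefSeq. CPM, ranks, exact intervals and the exact binomial test were computed in Python 3.11.15 with scipy 1.17.1, TMM factors and dispersion with edgeR 4.0.16, size factors with DESeq2 1.42.0 and folding energies with RNAfold 2.7.2. For the log2 ratios between libraries 0.5 counts were added to each count. With 1 group, edgeR's quasi-likelihood test could not be fitted. The library test was also run on simulated data. Named genes were the members, genes overlapping them, the 2 nearest above and below in level, and the up to 5 highest of each list; the members, lists and tests were chosen with earlier results of these data known. Blood, muscle, heart, liver, neuronal and limb markers were named as listed. Mir142, Mir378a, Mirlet7e, Mir24-1, Mir497a, Mir1a-2, Mir18a, Mir92a-1 and Mir146a were named after their values were seen.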

Additional observations from a re-analysis of the deposited data

Results flagged for a closer look

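Antisense reads lay over Mir126a in data outside the main measurement, 35 in replicate 1 and 11 in replicate 2, above the 3 counts that a count of 0 allows. The antisense column was not used for the levels reported. Mir126b is annotated on that strand and is not counted under its own gene, and what part of these reads it supplied was not tested.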

How the results depend on the processing

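The order of the 3 genes and the direction of both ratios were the same under every alternative run. Other denominators and scaling factors act alike on all genes of a library, so they could not have changed either. Counting both strands added only 35 and 11 reads to Mir126a and 0 to the pair. Hairpin lengths of 63 to 73 bases are too alike to change the directions, and leaving out 1 library repeats values given above. Mir143 alone, or the mean of the pair's log2 levels, lies below the pair's sum and could only raise the ratio. This sameness is thus no added support. Scaled to all reads, the means were 9633 for Mir126a, 3198 for Mir143 and 51.5 CPM for Mir145a, and the sum of the 3 was 1.29%. Without genes sharing 18 or more bases in the denominator, they were 25341, 8418 and 135 CPM, and the sum was 3.39%. With both strands counted, Mir145a lay at 105 CPM and the sum at 2.62%, and Mir143 and Mir145a ranked 33rd and 195th. Among genes sharing no 18 or more bases the ranks of Mir126a, Mir143 and Mir145a were 11, 24 and 145. With 1 library left out, the rank of Mir143 was 29 to 31. The log2 ratio of Mir126a over the smooth muscle pair was 4.57 when the mean of the pair's log2 levels replaced their sum, since Mir145a then weighs as much as Mir143. Per hairpin base, an alternative chosen after seeing the data, it was 1.36, and that of Mir143 over Mir145a 6.11. Without the minimum ratio 179 genes passed between libraries in place of 15, Mir126a (-0.085) and Mir143 (0.17) among them. TMM factors gave 15 calls and DESeq2 size factors 13. No paired analysis was possible because there is 1 group. Depth limits Mir145a most, at 635 and 655 counts.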
